A study of Homo sapiens with 8 samples.

Results

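The 10 genes described here encode transport proteins and receptors of the kidney tubule together with uromodulin, and they were taken as a named list: SLC12A3, UMOD, AQP1, AQP2, SLC34A1, CUBN, LRP2, SLC22A6, SLC5A2 and SLC12A1. For each gene, the genomic windows that contain its transcription start site (TSS) on hg19 were used, 9 windows of 100 kb and 9 of 50 kb. This gave 180 windows for the 10 genes, of 835254 windows in all. The measurement is SON TSA-seq, in which an antibody to SON, a core protein of nuclear speckles, directs biotin onto nearby DNA, and the biotin-bearing fragments, which come mostly from chromatin close to speckles, are sequenced. The cells were 786-O, a human clear cell renal carcinoma line that lacks functional VHL and carries stabilised HIF-2α, grown under atmospheric oxygen. One group received 2 µM PT2399, a small molecule that keeps HIF-2α from pairing with ARNT, for 3 h, and the other received the same volume of DMSO for 3 h. Each treatment has 2 SON pulldowns and 2 inputs, 8 libraries in all. For 4 of these 8, what the title says is contradicted by another field, either the antibody or the treatment. Titles decided the groups here. The deposited columns are headed control and treatment, and the sign of every change takes control to mean DMSO.

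Nuclear speckles are nuclear bodies rich in splicing factors, and chromatin near them is on the whole gene-dense and active. The tubule genes act in separate nephron segments. Sodium-phosphate and sodium-glucose cotransporters, organic anion transporters and the endocytic receptors megalin and cubilin serve reabsorption or secretion in the proximal tubule. The thick ascending limb, the distal convoluted tubule and the collecting duct follow with their own salt and water transport proteins. Clear cell carcinoma is held to arise from proximal tubule epithelium. RNA was not measured in these libraries, so that nothing here says which of the genes 786-O cells express.

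Each window has 1 log2 concentration per treatment, the authors' mean, with a p-value and a false discovery rate (FDR). Values of single libraries were not analysed here. Their depth is unknown, and the spread among them cannot be given. The authors' FDR, at a maximum of 0.01, is the test throughout. The labels do not say that the replicates came from separate cultures, so this FDR may measure technical spread only. A window was called measured when its concentration was at least 2 in both treatments. The lowest values, -0.11 with PT2399 and -0.07 with DMSO, are called the floor. A change of -0.04 is thus the gap between the floors. How the floor arises is not known, and a window at the floor can hold a smaller window with signal. Changes are PT2399 minus DMSO. Over all measured 100 kb windows the median change was -0.13 and at 50 kb it was -0.12, and changes of members are read against this shift. A 50 kb window collects signal from a smaller stretch: the median DMSO level of measured stretches was 8.02 at 50 kb and 8.94 at 100 kb. Levels are compared within a window size only. The 9 windows of a gene overlap, and an SD over them describes how the value varies with the position of the window; it is no replicate error.

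The sequences immediately upstream of the TSS are shown for SLC12A3 and SLC5A2, the members with a called window, for SLC34A1, with the highest SON level, and for LRP2 and SLC12A1, which share the lowest. They show the letters at the anchor points of the windows. Each is the 250 bases upstream of the TSS from RefSeq on GRCh38.p14, another build than that of the windows, printed 5′ to 3′ on the strand of the gene. Capitals mark the core motifs of HIF binding, ACGTG or GCGTG, on either strand.
SLC12A3 (chr16:56864957-56865206, plus strand): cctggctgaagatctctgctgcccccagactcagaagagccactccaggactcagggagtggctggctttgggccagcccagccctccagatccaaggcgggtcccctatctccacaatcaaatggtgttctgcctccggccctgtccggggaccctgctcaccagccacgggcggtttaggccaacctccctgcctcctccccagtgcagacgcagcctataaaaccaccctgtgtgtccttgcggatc
SLC5A2 (chr16:31482873-31483122, plus strand): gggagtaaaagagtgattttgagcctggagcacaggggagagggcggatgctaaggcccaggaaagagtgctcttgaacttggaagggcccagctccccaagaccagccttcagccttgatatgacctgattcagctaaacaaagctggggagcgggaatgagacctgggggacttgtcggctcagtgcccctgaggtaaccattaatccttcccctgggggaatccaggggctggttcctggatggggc
SLC34A1 (chr5:177384184-177384433, plus strand): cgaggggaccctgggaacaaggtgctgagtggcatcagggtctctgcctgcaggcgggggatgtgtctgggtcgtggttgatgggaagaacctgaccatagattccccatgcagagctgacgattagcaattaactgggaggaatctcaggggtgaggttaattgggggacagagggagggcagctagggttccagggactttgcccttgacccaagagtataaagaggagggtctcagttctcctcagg
LRP2 (chr2:169362535-169362784, minus strand): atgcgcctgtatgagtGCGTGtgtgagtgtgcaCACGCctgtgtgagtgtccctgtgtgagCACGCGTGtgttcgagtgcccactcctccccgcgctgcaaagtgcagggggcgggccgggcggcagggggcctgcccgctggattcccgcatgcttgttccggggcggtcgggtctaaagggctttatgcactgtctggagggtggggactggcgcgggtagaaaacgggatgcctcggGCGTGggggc
SLC12A1 (chr15:48206052-48206301, plus strand): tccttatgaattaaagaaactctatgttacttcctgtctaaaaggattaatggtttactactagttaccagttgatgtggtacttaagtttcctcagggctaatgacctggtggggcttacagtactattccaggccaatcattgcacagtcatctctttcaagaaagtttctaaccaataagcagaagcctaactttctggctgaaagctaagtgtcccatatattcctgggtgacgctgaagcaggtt
LRP2 held 5 GCGTG matches in this stretch, of which a pair on opposite strands overlap, and SLC12A3, SLC5A2, SLC34A1 and SLC12A1 held none. Of all 10 members, AQP2 also had a match, a palindrome that reads ACGTG on both strands, so that 2 of 10 stretches held a motif. The share among 35116 RefSeq promoters of the same length was 43.2%, and among 22199 protein-coding ones 49.3%. A match describes letters only and is no evidence of binding.

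SON levels of the tubule genes ran from the floor to near the top of all stretches. In the 100 kb windows, 7 of the 10 genes were measured in all 9 windows, LRP2 and SLC12A1 lay at the floor in all 9 under both treatments, and AQP1 was measured in 3. With PT2399, the order of the mean levels was SLC34A1, AQP2, SLC5A2, SLC12A3, SLC22A6, UMOD, CUBN, AQP1 and then the floor. With DMSO it was the same but for CUBN, which stood above UMOD. With PT2399, SLC34A1 was apart from AQP2, SLC22A6 from UMOD and AQP1 from the floor, in that their windows did not overlap in value. With DMSO, the gaps lay after SLC34A1, SLC22A6 and UMOD. The genes from AQP2 to SLC22A6 overlapped with their neighbours in this order under both treatments, as did CUBN and UMOD. Among all 309048 stretches of 10 kb covered by 9 windows of 100 kb, 56.7% were at the floor in both treatments, and the mean DMSO levels of the 7 measured genes lay above those of 81.1% to 99.6% of all stretches.

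**Figure D1:**
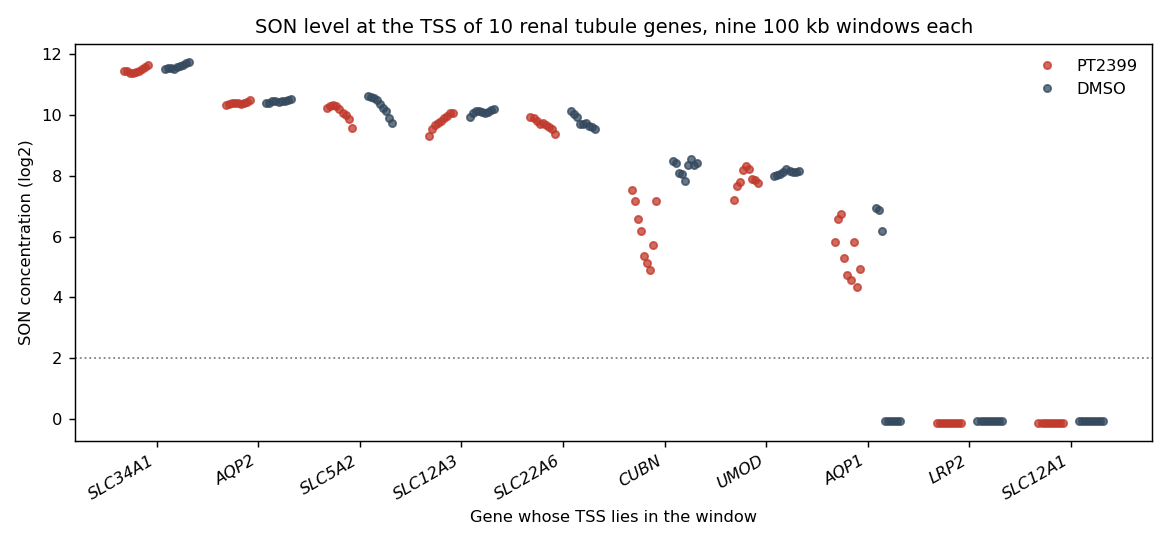
Log2 SON concentration in each 100 kb window that contains the TSS of the gene on the x axis, with PT2399 (red) left of DMSO (dark), windows in genomic order within a cluster of points and the dotted line at the minimum of 2 for a measured window. SLC34A1 is highest, LRP2 and SLC12A1 lie at the floor under both treatments, and AQP1 is at the floor in 6 of 9 windows with DMSO alone.

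Genes of 1 nephron segment did not share a level. Of the proximal tubule genes, SLC34A1 averaged 11.47 with PT2399 and 11.59 with DMSO at 100 kb, while LRP2 was at the floor with both. Of the thick ascending limb genes, UMOD averaged 7.88 with PT2399 and 8.11 with DMSO, and SLC12A1 was at the floor. The cotransporters SLC12A3 and SLC12A1 belong to the same family of cation-chloride cotransporters, and SLC12A3 averaged 9.78 with PT2399 and 10.10 with DMSO. Cubilin and megalin, which work together as endocytic receptors, were likewise apart: CUBN averaged 6.20 with PT2399 and 8.28 with DMSO. The GC content of the upstream stretch was 66.8% for LRP2, 56.4% for SLC34A1 and 40.4% for SLC12A1, so that the gene with the highest GC content among the 10 was at the floor.

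SON signal was lower with PT2399 in 4 of the 90 member windows of 100 kb in the authors' deposited tables, 3 at SLC12A3 and 1 at SLC5A2, and higher in 0. At an unadjusted p under 0.05, 19 of the 90 were lower, at 4 members, against 6.1% of all 100 kb windows and 15.3% of measured ones. Of the 90, 66 were measured, and these hold all 4 called windows and all 19 of the lower ones. At that p, 4 were higher, all at AQP1 and from the floor with DMSO, against 1.77% of all windows. None of these 4 was measured, and of all measured windows 1.95% were higher. Thus 2 of 10 members had a lower window, both among the 7 measured in all 9 windows. Both symbols are also in the authors' deposited list of genes at lower 100 kb windows. Of all 100 kb windows, 0.614% were called lower in the authors' deposited tables, and of the measured ones 1.55%. Taken as stretches with at least 1 of 9 windows called, 2.17% of all stretches were lower, and 5.5% of those measured in all 9 windows. For higher calls the shares were 0.139% of all 100 kb windows and 0.0853% of measured ones, and 0.661% of all stretches and 0.401% of measured ones. At 50 kb, 0 of the 90 member windows passed in either direction in the authors' deposited DiffBind tables, against 0.176% of all 50 kb windows called lower and 0.0503% called higher, or 0.357% and 0.0291% of measured ones. As stretches, 0.763% of all and 1.56% of measured ones were lower at 50 kb, and 0.245% and 0.133% were higher. At an unadjusted p under 0.05, 12 of those 50 kb windows were lower, at 3 members, and 1 was higher. Of the 90, 70 were measured, among them all 12 of the lower ones but not the higher one. The shares over all 50 kb windows at that p were 4.7% lower and 2.16% higher, and over measured ones 9.72% lower and 1.79% higher. With 10 members these counts are small, and no test of the list was made. The median of the 10 members' mean changes was -0.11 at 100 kb and -0.04 at 50 kb. These medians count LRP2 and SLC12A1 at the gap between the floors, and AQP1 with changes from the floor. The 50 kb value is that gap itself and measures no change. Over the 7 measured members the median was -0.19 at 100 kb and -0.08 at 50 kb. Relative to the shift of all measured windows, 4 of these 7 members were lower and 3 higher at 100 kb, and 3 were lower and 4 higher at 50 kb. SLC34A1 lay close to the shift, at 0.0011 relative to it at 100 kb (counted as higher) and -0.016 at 50 kb (counted as lower). After each set was recentred on that shift, 0 members had a called window in either direction at 100 kb, where 0.731% of measured stretches were lower and 0.53% higher, or at 50 kb, where 0.169% were lower and 0.0908% higher.

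**Figure D2:**
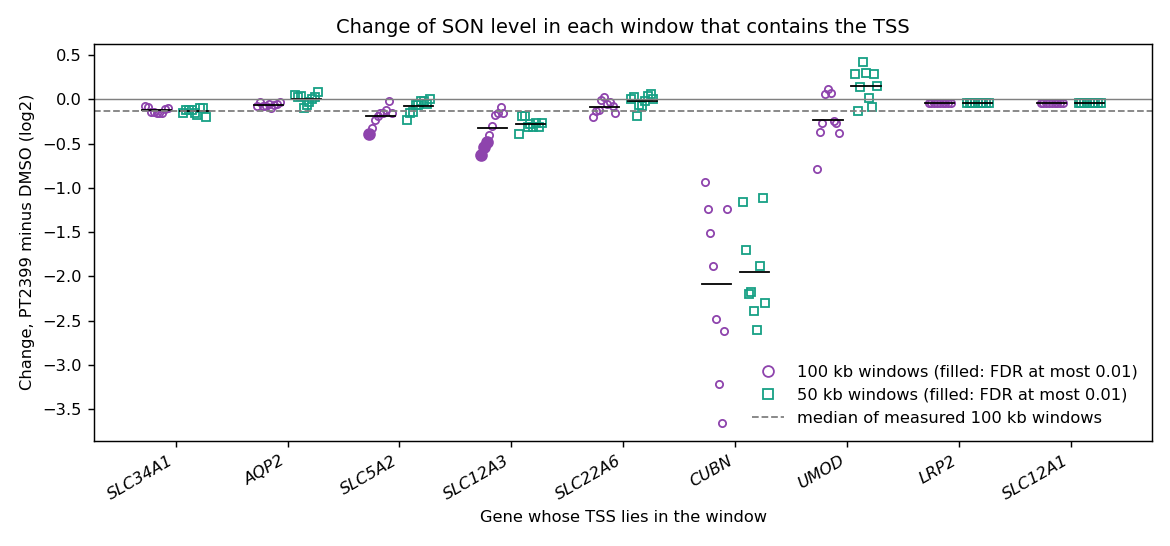
Change of log2 SON concentration (PT2399 minus DMSO) in every window that contains the TSS, at 100 kb (circles, left) and 50 kb (squares, right), with a bar at the mean of 9 windows and the dashed line at the median of -0.13 over measured 100 kb windows. Filled points passed an FDR of 0.01, 3 at SLC12A3 and 1 at SLC5A2. AQP1 is left out because its changes start from the floor, and the points of LRP2 and SLC12A1 at -0.04 are the gap between the floors.

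SLC12A3, the thiazide-sensitive sodium chloride cotransporter of the distal convoluted tubule, lies on chromosome 16 with its TSS at 56.899 Mb. Its 100 kb windows had a lowest level of 9.31, a median of 9.80 and a highest of 10.06 with PT2399, against 9.94, 10.11 and 10.21 with DMSO. The change averaged -0.33 ± 0.19 (SD over 9 overlapping windows) and was below 0 in 9 of 9. Its value depended on where the window lay. The window chr16:56800001-56900000, which reaches 99 kb upstream of the TSS, stood at 9.31 with PT2399 and 9.94 with DMSO, so that 64.6% of the DMSO level was left (authors' deposited table, FDR 0.000107). The next windows along the gene, chr16:56810001-56910000 and chr16:56820001-56920000, changed by -0.54 and -0.48 (authors' deposited tables, FDR 0.000271 and 0.00199). The window centred nearest the TSS, chr16:56850001-56950000, changed by -0.18 (authors' deposited table, FDR 0.326), with an approximate 95% interval of -0.40 to 0.04 from the error that the fold and p-value imply.

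At 50 kb the called windows near SLC12A3 lay upstream of its TSS, and the windows with the TSS changed less. The 9 windows of 50 kb that contain the SLC12A3 TSS changed by -0.39 to -0.19, with a lowest FDR of 0.213 in the authors' deposited tables. These changes also lay below the median of -0.12 over measured 50 kb windows. Upstream, 5 windows of 50 kb that together span chr16:56800001-56875000, from 99 to 24 kb before the TSS, were called lower. The deepest, chr16:56810001-56860000, stood at 7.75 with PT2399 and 8.92 with DMSO, which left 44.4% of the DMSO level (authors' deposited table, FDR 5.19e-05). After recentring, this window had a change of -1.04, and the lowest adjusted p among the 5 was 0.00205, while the lowest among the 100 kb windows with the TSS was 0.0141. None of the 10 nearest protein-coding neighbours of SLC12A3 stands in the authors' deposited gene lists. The next one upstream, named here after its values were seen, is NUP93, which encodes a nuclear pore protein. Within 600 kb, 0 other 100 kb windows were called around SLC12A3. Among 19184 stretches of like mean concentration (within 0.5), 8.67% had a mean change as low as that of SLC12A3, and their quartiles were -0.23 and -0.06. At 50 kb this share was 18.1%.

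SLC5A2 encodes SGLT2, the sodium-glucose cotransporter of the early proximal tubule and the target of gliflozin drugs. Its TSS lies on chromosome 16 at 31.494 Mb. The 100 kb windows ran from 9.58 to 10.32 with PT2399, with a median of 10.19, and from 9.74 to 10.61 with DMSO, with a median of 10.35. The change averaged -0.19 ± 0.11 (SD over 9 overlapping windows), or -0.07 relative to the shift of all measured windows. The window that reaches farthest upstream, chr16:31400001-31500000, stood at 10.22 with PT2399 and 10.61 with DMSO, or 76.3% of the DMSO level (authors' deposited table, FDR 0.00214). The other 8 windows had an FDR of 0.0144 or more in the authors' deposited tables. This called window is the edge of a lower region of 5 windows, chr16:31350001-31500000, that runs from 144 kb upstream to 6 kb downstream of the TSS. Its best window changed by -0.50 and left 70.7% of the DMSO level (authors' deposited table, FDR 2.53e-05), and the lowest adjusted p after recentring was 0.0171.

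At 50 kb the called stretch next to SLC5A2 ended before the TSS. The 9 windows of 50 kb with the TSS changed by -0.23 to 0, and the lowest FDR was 0.289 in the authors' deposited tables. A lower region of 4 windows, chr16:31375001-31460000, lay from 119 to 34 kb upstream, with a change of -0.56 in its best window (authors' deposited table, FDR 0.00244). The 5 protein-coding genes next upstream in RefSeq order, TGFB1I1, ARMC5, ZNF843, COX6A2 and ITGAD, all stand in the authors' deposited list of genes at lower 100 kb windows, and ZNF843, COX6A2 and ITGAD also in the 50 kb list. ITGAD encodes an integrin alpha chain of leukocytes and COX6A2 a subunit of cytochrome c oxidase. ZNF267, a zinc finger gene 4 places downstream, is in both lists too. Further lower 100 kb regions lay from 454 to 274 kb upstream and from 316 to 426 kb downstream of the TSS, with best changes of -0.29 and -1.11 (authors' deposited tables, FDR 0.000928 and 0.00644). With these, 14 of 108 windows within 600 kb were called lower. Of stretches of like mean concentration, 32.5% at 100 kb and 68% at 50 kb had a mean change as low as that of SLC5A2.

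CUBN had the largest mean change of the 7 measured members, and none of its TSS windows was called. It encodes cubilin, the receptor for intrinsic factor-bound vitamin B12 and a partner of megalin in protein uptake by the proximal tubule, on the minus strand of chromosome 10 with its TSS at 17.172 Mb. The 100 kb windows had a lowest level of 4.89, a median of 6.18 and a highest of 7.53 with PT2399, against 7.84, 8.37 and 8.54 with DMSO. The 2 treatments did not overlap in value, and all 9 changes were below 0, from -3.65 to -0.94, with a mean of -2.09 ± 0.95 (SD over 9 overlapping windows). The lowest FDR was 0.0425, at chr10:17120001-17220000, where the level was 6.18 with PT2399 and 8.06 with DMSO (authors' deposited table, 27.2% of the DMSO level). The interval implied by fold and p-value for this window, which is also the one centred nearest the TSS, was -3.08 to -0.68. Larger changes had higher FDRs. The window with -3.65 had an FDR of 0.269 in the authors' deposited table, and its implied interval of -7.54 to 0.24 included 0. At 50 kb the TSS windows changed by -2.60 to -1.12, and the lowest FDR was 0.0174 in the authors' deposited tables. The 50 kb window centred nearest the TSS changed by -2.39 (authors' deposited table, FDR 0.57), with an implied interval of -6.37 to 1.59.

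Windows beside the CUBN TSS passed the test. A set of 3 windows of 50 kb upstream, chr10:17190001-17260000, 18 to 88 kb from the TSS, was lower, and its best window stood at 5.25 with PT2399 and 7.86 with DMSO (authors' deposited table, FDR 9.36e-05). The lowest adjusted p after recentring was 0.000823. The change of -7.02 in another of the 3 ends at the floor with PT2399 and has no defined size. TRDMT1, a tRNA methyltransferase gene and the next protein-coding gene upstream of CUBN, is in the authors' deposited 50 kb list, and CUBN itself is in neither list. A 100 kb window 92 to 192 kb downstream of the TSS, chr10:16980001-17080000, changed by -1.09, with 7.59 with PT2399 and 8.68 with DMSO (FDR 0.00586 in the authors' deposited table, adjusted p 0.0617 after recentring). The 48 measured 100 kb windows within 600 kb had a median change of -0.79. Among 15918 stretches of like mean concentration, 0.132% had a mean change as low as that of CUBN, and their quartiles were -0.47 and 0.20. At 50 kb this share was 1.31%. The stretch of CUBN itself is among those counted, and neighbouring stretches share windows with it.

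**Figure D3:**
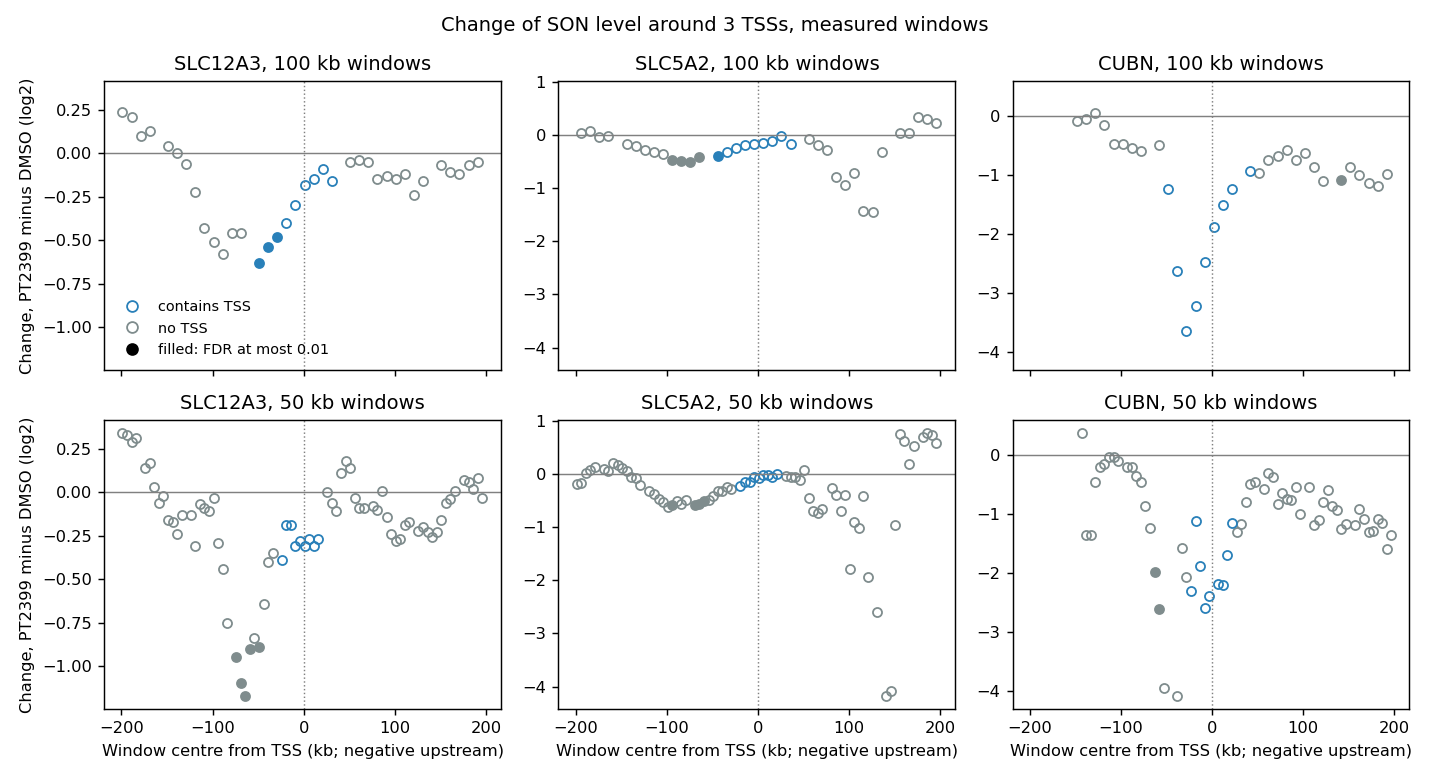
Change of log2 SON concentration (PT2399 minus DMSO) against the distance of the window centre from the TSS in kb, negative upstream along the gene, for SLC12A3, SLC5A2 and CUBN at 100 kb (top) and 50 kb (bottom), measured windows only. Blue points contain the TSS and filled points passed an FDR of 0.01. Within the 200 kb on each side that are shown, the filled 50 kb points lie upstream of the TSS in all 3 panels and none of them is blue.

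LRP2 and SLC12A1 gave no measurable signal in the windows with their TSS. LRP2 encodes megalin, the large endocytic receptor of the proximal tubule, on chromosome 2 with its TSS at 170.219 Mb. SLC12A1 encodes NKCC2, the loop diuretic-sensitive cotransporter of the thick ascending limb, on chromosome 15 at 48.5 Mb. Both genes stood at -0.11 with PT2399 and -0.07 with DMSO in all 18 of their windows. All 108 windows of 100 kb within 600 kb of LRP2 were at the floor in both treatments, as were 108 of 109 around SLC12A1. At 50 kb, 201 of 216 windows were at the floor in both treatments around LRP2, and 202 of 217 around SLC12A1. The highest 50 kb values around LRP2 were 3.79 with PT2399 and 5.42 with DMSO. Around SLC12A1 they were 5.03 with PT2399 and 4.53 with DMSO. In the windows with either TSS, the changes of -0.04 are the gap between the floors. A fall could not be measured there, and no rise from the floor was called.

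AQP1, the water channel of the proximal tubule and the thin descending limb, has its TSS on chromosome 7 at 30.951 Mb. The gene lies among windows that reach the floor under either treatment. Its 100 kb windows were at 4.35 to 6.75 with PT2399, with a median of 5.30. With DMSO, 6 of the 9 were at the floor. The other 3, which reach farthest upstream, were at 5.81, 6.57 and 6.75 with PT2399 and at 6.95, 6.88 and 6.19 with DMSO, so that the treatments overlapped there. The change from the floor was largest in chr7:30930001-31030000, with 5.82 with PT2399 and -0.07 with DMSO (authors' deposited table, FDR 0.0602), and a fold from the floor has no defined size. At 50 kb, 7 of 9 windows were measured, 1 was at the floor in both treatments and 1 with DMSO only, and the lowest FDR was 0.243 in the authors' deposited tables. The 50 kb window chr7:30915001-30965000 stood at 6.87 with PT2399 and 6.34 with DMSO. It lies within chr7:30900001-31000000, a 100 kb window at the floor with DMSO. Upstream, the reverse was seen. The 100 kb windows from chr7:30800001-30900000 to chr7:30840001-30940000 were at the floor with PT2399 and at 4.54 to 5.5 with DMSO. No 100 kb window within 600 kb of AQP1 was called in either direction. Downstream, all 41 windows of 100 kb centred 149 kb or more from the TSS, up to 600 kb, were at the floor in both treatments.

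**Figure D4:**
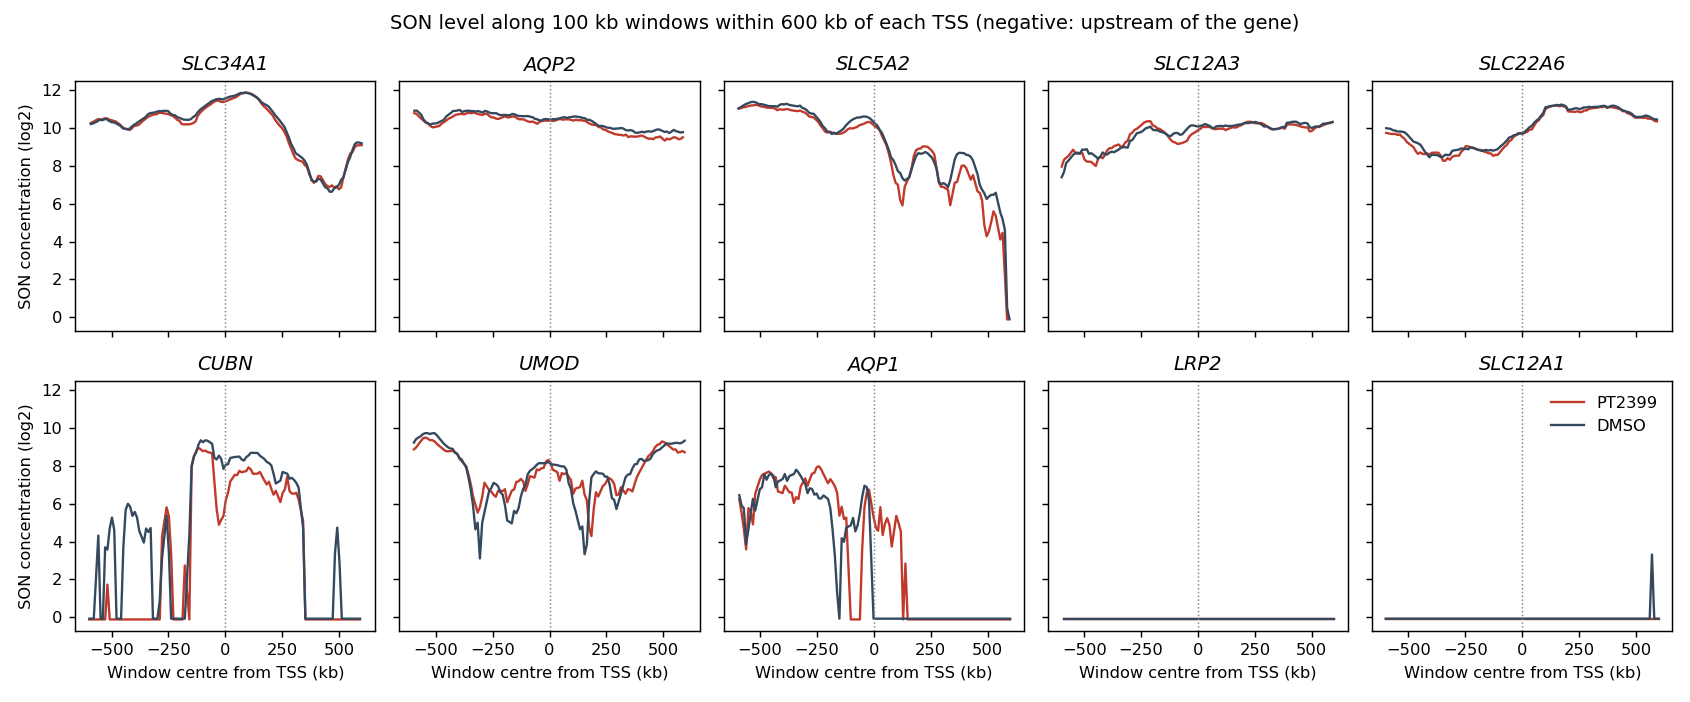
Log2 SON concentration with PT2399 (red) and DMSO (dark) along 100 kb windows within 600 kb of each TSS, against the distance of the window centre from the TSS in kb, negative upstream along the gene. SLC34A1, AQP2 and SLC22A6 run close together in both treatments, and CUBN is lower with PT2399 around its TSS. AQP1 reaches the floor under either treatment near its TSS, and LRP2 and SLC12A1 lie in stretches at the floor.

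The other 4 members showed no called change in the windows with their TSS. SLC34A1, the sodium-phosphate cotransporter NaPi-IIa of the proximal tubule, has its TSS on chromosome 5 at 176.811 Mb. Its 100 kb windows ran from 11.37 to 11.64 with PT2399, with a median of 11.44, and from 11.51 to 11.74 with DMSO, with a median of 11.56. The change averaged -0.13 ± 0.03 (SD over 9 overlapping windows), equal to the shift of all measured windows to within 0.01, and the lowest FDR was 0.0804 in the authors' deposited tables. At 50 kb the change averaged -0.14 and the lowest FDR was 0.191 in the authors' deposited tables.

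AQP2 encodes the vasopressin-regulated water channel of the collecting duct, with its TSS on chromosome 12 at 50.344 Mb. Its 100 kb windows lay between 10.32 and 10.48 with PT2399, with a median of 10.39, and between 10.40 and 10.51 with DMSO, with a median of 10.47. The mean change was -0.06 at 100 kb and 0.0022 at 50 kb, both above the shift of measured windows, and the lowest FDRs were 0.522 and 0.754 in the authors' deposited tables. The window centred nearest the TSS changed by -0.05, with an interval of -0.23 to 0.13 from the median error of windows in its concentration bin.

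SLC22A6 encodes OAT1, the organic anion transporter that takes up drugs and urate from blood into proximal tubule cells. Its TSS lies on chromosome 11 at 62.752 Mb, on the minus strand. Its 100 kb windows ran from 9.37 to 9.92 with PT2399, with a median of 9.70, and from 9.53 to 10.12 with DMSO, with a median of 9.71, so the 2 treatments overlapped. The mean change was -0.08 at 100 kb and -0.02 at 50 kb, and the lowest FDRs were 0.316 and 0.668 in the authors' deposited tables. The window centred nearest the TSS changed by -0.01, with an interval of -0.27 to 0.25 from the median error of windows in its concentration bin.

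UMOD encodes uromodulin, the most abundant protein of normal urine, which is made in the thick ascending limb. Its TSS lies on chromosome 16 at 20.364 Mb on the minus strand. The 100 kb windows ran from 7.21 to 8.32 with PT2399, with a median of 7.87, and from 8.0 to 8.21 with DMSO, with a median of 8.14. The mean change was -0.23 ± 0.28 (SD over 9 overlapping windows) at 100 kb and 0.15 ± 0.19 at 50 kb, so that its sign differed between window sizes. The lowest FDRs were 0.329 and 0.739 in the authors' deposited tables. For the 100 kb window centred nearest the TSS, the median error of windows in its concentration bin gave an interval of -0.62 to 0.74. This interval includes a change of -0.54, as in the second called window of SLC12A3, but not -0.63, as in the first. Those windows are centred 39 and 49 kb upstream of the SLC12A3 TSS, so the positions differ. The UMOD window centred 46 kb upstream, chr16:20360001-20460000, changed by -0.38, with an implied interval of -1.13 to 0.37. The one centred 44 kb downstream, chr16:20270001-20370000, changed by -0.79, with an implied interval of -1.75 to 0.17. Both of these intervals include -0.63. From 89 to 149 kb downstream of the TSS, 3 windows of 50 kb were higher, and the best stood at 6.91 with PT2399 and at the floor with DMSO (authors' deposited table, FDR 0.00135). A change from the floor has no defined size. No 100 kb window within 600 kb of UMOD was called. Of those that overlap this stretch, chr16:20170001-20270000 stood at 7.22 with PT2399 and 4.8 with DMSO (authors' deposited table, FDR 0.107). In chr16:20130001-20230000 the order was opposite, with 4.29 and 7.39 (authors' deposited table, FDR 0.137).

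Other genes of tubule transport were looked up by symbol in the authors' deposited lists of genes at lower windows, which hold 1023 genes at 100 kb and 258 at 50 kb. Of a list of 52 further genes, among them the epithelial sodium channel subunits, the thick ascending limb claudins and the proton pump subunits of intercalated cells, 2 were in the 100 kb list and the same 2 in the 50 kb list (3.85% each). These were KLHL3, which encodes an adaptor for the ubiquitin ligase that degrades WNK kinases and so acts on the SLC12A3 cotransporter, and PVALB, which encodes the calcium-binding protein parvalbumin of the distal convoluted tubule. Of all 20056 protein-coding genes, the authors' deposited list at 100 kb holds 4.28% and that at 50 kb 1.10%. The 52 genes were not placed in windows.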

How the data were processed

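SON TSA-seq of 786-O cells was analysed from tables of group values. Per the submitters' processing notes, the build was hg19 and the tools were DiffBind, Bowtie2, bedtools and Picard; versions, scaling, how inputs were used and how reads were counted are not given in the sources. Log2 concentrations for control, treatment and both are deposited for every window, per the file headers, beside a log2 fold that runs as control minus treatment (tested to within 0.01). Changes here run the other way. The authors' p-value and FDR stand beside them, per the file headers. The FDRs match a Benjamini-Hochberg adjustment over a median of 11734 windows per 100 kb set, fewer than the set holds. No value is a count, so no count model was run. Each set holds 30924 windows at 100 kb (offset 10 kb) or 61882 at 50 kb (offset 5 kb). The deposited gene and window lists hold no measurement.

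TSS positions on hg19 came with the member list, rounded to 1 kb. The members and lists were chosen with earlier results of these data known. All 10 members were named, with neighbours (5 protein-coding genes on each side in RefSeq order, GRCh38.p14, for order and names only) and other tubule genes where they stand in the deposited lists. All 10 members matched a RefSeq promoter. Background shares were counted over all windows and over all stretches of 1 offset covered by 9 windows. Stretches of like mean concentration include the member's own and can include neighbours that share windows with it. For recentring, each set's median change over measured windows was subtracted, and an error was implied from fold and p-value through the normal distribution (where the fold was under 0.1 or p at least 0.5, the median of the window's bin among 20 concentration bins). The new p-values had a Benjamini-Hochberg adjustment within each set. The procedure was tested on simulated data, with normal noise drawn from the implied errors. That test could not show whether a normal statistic holds for the real data. The implied errors assume such a statistic, which the tables do not state, and the 95% intervals share that limit. Software was Python 3.11.15 with scipy 1.17.1, pandas 2.3.3, numpy 2.4.6 and, for figures, matplotlib 3.10.9.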

Additional observations from a re-analysis of the deposited data

How the results depend on the processing

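No paired analysis was possible because the deposited tables hold 1 mean per treatment and no value per library, and for the same reason no replicate could be left out. The 2 members with a lower 100 kb window became 1 at an FDR of 0.001 (SLC12A3) and 3 at 0.05, where CUBN joined. At these FDRs 0.829% and 5.11% of all stretches, and 1.94% and 13.7% of measured ones, had a lower 100 kb window. The 2 members became 0 when a call in at least 5 of 9 sets was asked for, 0 after recentring with implied errors, and 0 with the TSS in the middle 50% of the window, a setting chosen after seeing the data. The last follows from the position of the calls, since all 4 lie in windows that reach mainly upstream. At 50 kb the 0 members became 1, CUBN, at an FDR of 0.05, where 2.21% of all and 4.96% of measured stretches were lower. Recentring, which adds back the shift, put the median change over members at 0.0217 at 100 kb (-0.11 without it) and 0.0822 at 50 kb (-0.04 without it). These medians also add the shift to the members with windows at the floor, although it was taken from measured windows only. The 50 kb value is the gap between the floors with the shift added, and its sign says nothing about the members. Over the 7 measured members alone the recentred median was -0.07 at 100 kb and 0.04 at 50 kb. With all windows within 100 kb of the TSS, the 50 kb median was -0.11, and the cause was not tested. Counts of members with a higher window were 0 under all alternatives at both sizes. Signal limits LRP2 and SLC12A1, at the floor in all windows, and AQP1, at the floor with DMSO in 6 of 9 windows of 100 kb.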
